A study of Mus musculus with 8 samples.

Results

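The genes described here are 9 members of the platelet alpha granule and cytoskeleton set: the chemokines Pf4 and Ppbp, the adhesive proteins Vwf, Mmrn1, Selp and Thbs1, the clotting cofactor F5, the membrane coat protein Cavin2 and the tubulin Tubb1. They were chosen by name, through the transcript that each array probe was designed to, out of 20660 genes named on the arrays. Each gene was read from 1 probe, and F5, which had 2 probes, from the brighter one. RNA came from LSK cells, a sorted mouse bone marrow fraction (c-Kit and Sca-1 on the surface, no lineage markers) rich in stem cells and early progenitors. All cells were of C57BL/6 background and had grown in irradiated recipients that received a mixture of CD45.2+ donor cells and CD45.1+ wild-type marrow.

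There were 8 groups with 1 array each. RUNX1S291fs/Ezh2Δ/Δ cells (the double mutant) carried a retrovirus encoding the frameshift mutant RUNX1S291fs and had lost Ezh2, a histone methyltransferase of the Polycomb complex PRC2, through an inducible Cre (Cre-ERT). They were taken 4 months after transplantation, before disease. RUNX1S291fs/Ezh2Δ/Δ-MDS and RUNX1S291fs/Ezh2Δ/Δ-MDS/ML cells had the same lesions and came from 1 moribund mouse each, the first with myelodysplastic syndrome (MDS) and the second with MDS and myeloid leukemia. RUNX1S291fs cells and Ezh2Δ/Δ cells had 1 lesion each, and WT cells neither. By the design text the donor cells without RUNX1S291fs received an empty control virus. Both CD45.1+ groups were wild-type competitor cells, 1 sorted out of RUNX1S291fs mice and 1 out of RUNX1S291fs/Ezh2Δ/Δ mice, with no Cre or virus named for them. The month 4 CD45.2+ arrays held pooled cells of 2 to 4 mice. With 1 array a group, a difference between groups could not be tested by itself. The sources used here give no age for the mice.

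Alpha granules are the most abundant secretory granules of platelets, and megakaryocytes, the platelet-forming cells of the marrow, fill them with chemokines, adhesive proteins and clotting factors. Some stem cells and early progenitors already express part of this set, Vwf, Pf4 and Selp among them, and are described as platelet-biased. RUNX1 is a transcription factor of megakaryocyte development, and inherited RUNX1 mutations are a known cause of low platelet counts and granule defects in people.

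Pf4 and Ppbp lie near each other on mouse chromosome 5, and Selp and F5 near each other on chromosome 1. Their promoters are shown because the levels of the first pair moved alike across the arrays and those of the second did not, as described below. Each line gives the 250 bases before the RefSeq start of the gene (assembly GRCm38.p6, plus strand) with the letters GGAAG or CTTCC, the core of an ETS family motif on either strand, in capitals. The windows are chr5:90772185-90772434 for Pf4, chr5:90768268-90768517 for Ppbp, chr1:164115014-164115263 for Selp and chr1:164151585-164151834 for F5.
Pf4: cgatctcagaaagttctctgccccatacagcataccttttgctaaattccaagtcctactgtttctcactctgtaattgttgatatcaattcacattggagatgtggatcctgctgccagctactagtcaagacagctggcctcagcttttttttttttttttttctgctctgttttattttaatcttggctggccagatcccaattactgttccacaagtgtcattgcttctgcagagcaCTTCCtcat
Ppbp: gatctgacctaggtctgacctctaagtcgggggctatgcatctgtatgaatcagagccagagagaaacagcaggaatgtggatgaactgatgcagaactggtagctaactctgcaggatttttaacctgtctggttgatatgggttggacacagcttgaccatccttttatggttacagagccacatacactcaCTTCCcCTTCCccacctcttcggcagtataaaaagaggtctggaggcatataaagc
Selp: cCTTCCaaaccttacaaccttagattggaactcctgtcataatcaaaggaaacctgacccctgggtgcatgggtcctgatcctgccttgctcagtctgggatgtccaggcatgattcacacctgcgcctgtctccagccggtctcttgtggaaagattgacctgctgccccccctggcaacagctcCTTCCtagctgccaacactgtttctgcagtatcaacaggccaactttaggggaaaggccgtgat
F5: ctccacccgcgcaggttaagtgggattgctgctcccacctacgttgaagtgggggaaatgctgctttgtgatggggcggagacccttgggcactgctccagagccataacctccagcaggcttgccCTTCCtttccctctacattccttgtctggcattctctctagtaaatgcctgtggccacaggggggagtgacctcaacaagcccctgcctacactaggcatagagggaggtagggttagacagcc

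Of the 9 members, 7 were in the promoter table, and Vwf and Thbs1 were not. The ETS core was found in all 7 windows, as it was in 64.1% of 32851 promoter windows of this length. Counted from the start, it lay at −9 to −5 in Pf4 and in 2 places in Ppbp, at −56 to −52 and at −50 to −46. The RUNX letters TGTGGT or TGCGGT, on either strand, were found in 0 of the 7 windows and in 18.6% of all windows. A GATA motif, searched on both strands as the letters AGATAA and its form ending in G (AGATAG), and with T as first letter as TGATAA and its form ending in G (TGATAG), was found in 1 of the 7, Mmrn1, at −34 to −29, and in 26.5% of all windows. These searches describe letters in a short window and say nothing of binding.

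The level of a gene is its processed signal relative to the 75th percentile of its own array, in log2 units, where 0 marks the percentile and 1 unit a 2-fold step. That percentile ran from 185.7 signal units on the CD45.1+ array from RUNX1S291fs mice, the dimmest, to 474.1 on WT, and 43.9% to 55.3% of probes were well above background by the mark of the scanner software. The arrays came from 3 slides: RUNX1S291fs/Ezh2Δ/Δ-MDS, RUNX1S291fs/Ezh2Δ/Δ and WT from slide 1, RUNX1S291fs, Ezh2Δ/Δ and both CD45.1+ arrays from slide 2, and RUNX1S291fs/Ezh2Δ/Δ-MDS/ML alone from slide 3. What marks the MDS/ML array and what marks its slide cannot be told apart. The gate genes Kit, Ly6a and Ptprc were well above background on all 8 arrays, but Ly6a, which encodes Sca-1, lay at 0.53 and 1.18 on the MDS and MDS/ML arrays, against 3.17 to 4.14 on the 6 month 4 arrays. Of 6 lineage genes that the sort should leave out, 3 or 4 were well above background on each array. The Ezh2 probe gave 3.10 to 3.51 on the 4 arrays labelled as deleted, against 3.40 to 4.01 on the other 4, and the sources used here do not place it inside or outside the deleted exons. Ezh2Δ/Δ and MDS/ML cells had the Y-linked Eif2s3y well above background and Xist not, and the other 6 arrays had the reverse, so these samples differ in sex.

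Pf4, platelet factor 4, is a chemokine that binds heparin and restrains megakaryocyte and stem cell growth. Its level was 4.80 on the RUNX1S291fs/Ezh2Δ/Δ array, 8.50 on MDS, 7.13 on MDS/ML, 4.45 on RUNX1S291fs, 3.10 on Ezh2Δ/Δ, 1.78 on the CD45.1+ array from RUNX1S291fs mice, 4.41 on that from RUNX1S291fs/Ezh2Δ/Δ mice and 4.75 on WT. Both moribund arrays stood above the other 6, by at least 2.33, while the double mutant, RUNX1S291fs, WT and the brighter CD45.1+ array lay within 0.39 of each other.

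Ppbp, pro-platelet basic protein, is the precursor of chemokines that attract neutrophils. Its level was −0.46 on the double mutant, 3.77 on MDS, 4.09 on MDS/ML, 0.27 on RUNX1S291fs, −3.68 on Ezh2Δ/Δ, −2.28 on the CD45.1+ array from double-mutant mice and −1.58 on WT, and it was not well above background on the CD45.1+ array from RUNX1S291fs mice (−5.28). All 4 RUNX1S291fs carriers stood above all 4 other arrays, and both moribund arrays above the 2 carriers at month 4. The spread of Ppbp over the 8 arrays, 9.37 with the dim value as measured, was larger than that of 99.9% of all genes tested, whose median was 1.40.

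**Figure D1:**
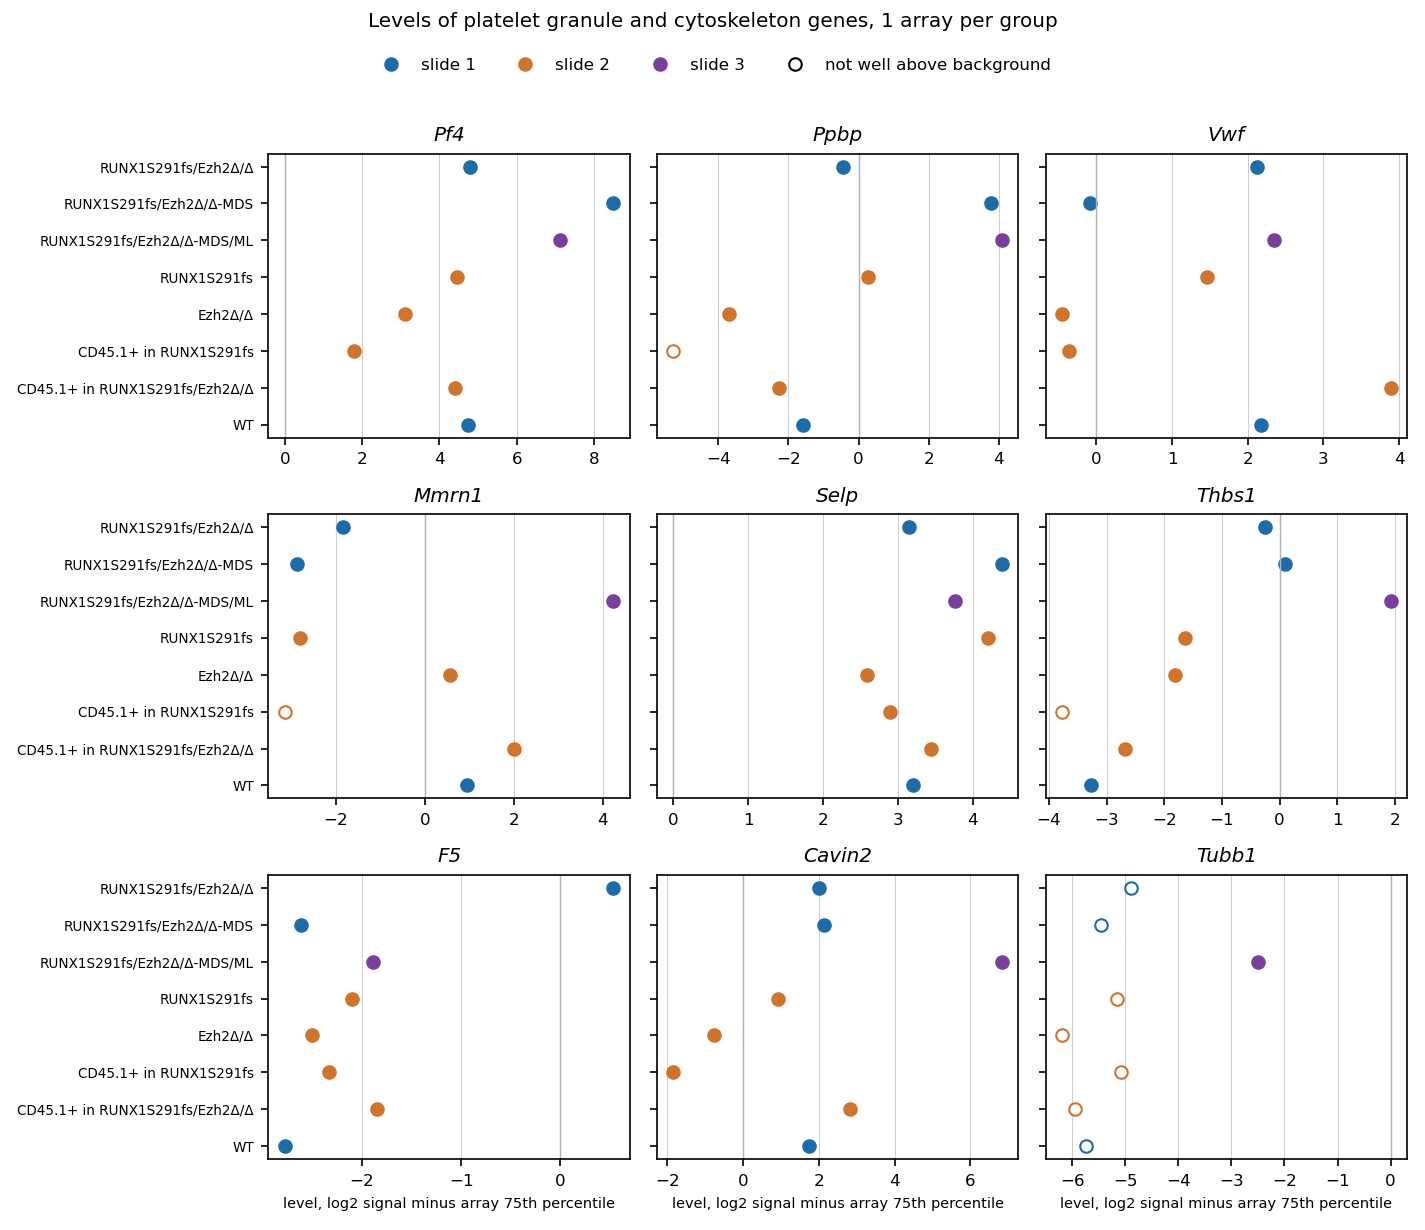
Level (log2 units above or below the 75th percentile of signal on that array) of each of the 9 genes on the 8 arrays, 1 point per array, coloured by slide, with open points where the probe was not well above background. The horizontal scales differ between panels. Pf4 and Ppbp reach their 2 highest levels on the moribund arrays, Mmrn1 and Cavin2 stand high on MDS/ML, F5 on the double mutant, and Tubb1 is well above background on MDS/ML only.

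Of the 4 adhesive proteins, only Thbs1 also had both moribund arrays above the other 6 and all carriers above all non-carriers. Vwf, von Willebrand factor, tethers platelets to injured vessel walls and is also made by endothelium. It was at 2.12 on the double mutant, −0.08 on MDS, 2.35 on MDS/ML, 1.46 on RUNX1S291fs, −0.45 on Ezh2Δ/Δ, −0.36 and 3.89 on the CD45.1+ arrays from RUNX1S291fs and double-mutant mice and 2.18 on WT. The highest and one of the lowest levels were thus on wild-type competitor cells, and carriers and non-carriers overlapped. Mmrn1, multimerin 1, is a large granule protein that binds factor V. It was at −1.85 on the double mutant, −2.88 on MDS, 4.23 on MDS/ML, −2.80 on RUNX1S291fs, 0.56 on Ezh2Δ/Δ, 1.99 on the CD45.1+ array from double-mutant mice and 0.95 on WT, and not well above background on the other CD45.1+ array (−3.15). Of the 4 carriers, 3 lay between −2.88 and −1.85, and MDS/ML stood 6.08 above the nearest of them.

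Selp encodes P-selectin, a receptor of the granule membrane that moves to the platelet surface on activation and binds leukocytes. It was at 3.15 on the double mutant, 4.39 on MDS, 3.76 on MDS/ML, 4.21 on RUNX1S291fs, 2.59 on Ezh2Δ/Δ, 2.89 and 3.44 on the CD45.1+ arrays from RUNX1S291fs and double-mutant mice and 3.20 on WT. Its spread of 1.80 was the narrowest of the 8 members tested, and its probe, spotted 9 or 10 times per array after flagged spots were left out, had an SD between spots of 0.0305 to 0.0519 log2. That SD covers spotting alone. Thbs1, thrombospondin 1, is an adhesive glycoprotein that restrains vessel growth. It was at −0.25 on the double mutant, 0.09 on MDS, 1.92 on MDS/ML, −1.64 on RUNX1S291fs, −1.81 on Ezh2Δ/Δ, −2.68 on the CD45.1+ array from double-mutant mice and −3.27 on WT, and not well above background on the other CD45.1+ array (−3.77). The carriers again stood above the other arrays, but RUNX1S291fs cleared Ezh2Δ/Δ by 0.17 only.

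F5 encodes coagulation factor V, the cofactor with which factor Xa makes thrombin. It was at 0.53 on the double mutant, −2.61 on MDS, −1.88 on MDS/ML, −2.10 on RUNX1S291fs, −2.50 on Ezh2Δ/Δ, −2.33 and −1.85 on the CD45.1+ arrays from RUNX1S291fs and double-mutant mice and −2.78 on WT. The double mutant stood alone, and the other 7 arrays lay within 0.92 of each other. The second F5 probe was also highest on the double mutant (−3.29), and was otherwise well above background on the CD45.1+ array from double-mutant mice only (−4.02).

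Cavin2 (also called Sdpr) is a phosphatidylserine-binding coat protein of caveolae that is abundant in platelets. It was at 2.00 on the double mutant, 2.13 on MDS, 6.83 on MDS/ML, 0.92 on RUNX1S291fs, −0.77 on Ezh2Δ/Δ, −1.84 and 2.82 on the CD45.1+ arrays from RUNX1S291fs and double-mutant mice and 1.75 on WT. MDS/ML was highest, and the next, at 2.82, was a wild-type array. Tubb1, the beta-tubulin of megakaryocytes that forms the marginal band of platelets, was at −2.50 on MDS/ML and not well above background on any other array. It was therefore left out of the model, in which 8 of the 9 members were tested.

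The moribund arrays were set against the month 4 double mutant, which carried the same lesions, to ask how these genes differed once disease had developed. On MDS, read on the same slide, Ppbp was 4.22 higher, Pf4 3.70 higher and Selp 1.24 higher, while F5 differed by −3.15, Vwf by −2.20 and Mmrn1 by −1.03. Thbs1 and Cavin2 differed by 0.34 and 0.13. Thus 3 of 8 measured members were higher and 3 lower by 2-fold or more, and of all measured genes 10.6% were higher and 20.3% lower by that much.

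MDS/ML and the double mutant differed in slide and sex as well, whose part was not tested. On MDS/ML, Mmrn1 was 6.08 above the double mutant, Cavin2 4.83, Ppbp 4.54, Pf4 2.33 and Thbs1 2.17, and Tubb1 was at least 2.15 higher. F5 differed by −2.42, and Selp and Vwf by 0.61 and 0.23. In all 6 of 9 members were at least 2-fold higher and 1 lower, with 9.76% of all measured genes higher and 15.2% lower. By 2-fold or more, Pf4 and Ppbp thus lay higher and F5 lower on both moribund arrays. Selp was higher by that much on MDS only, and Cavin2 and Thbs1 on MDS/ML only, while Vwf and Mmrn1 had opposite signs. Both differences take off the same double-mutant array, where F5 was high (0.53). The share of all genes at least 2-fold apart in the same direction on both was not counted. The F5 levels on MDS and MDS/ML, −2.61 and −1.88, lay within those of the remaining arrays (−2.78 to −1.85).

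Between the moribund arrays themselves, MDS/ML exceeded MDS by 7.12 for Mmrn1, 4.70 for Cavin2, 2.43 for Vwf, 1.84 for Thbs1 and at least 2.48 for Tubb1, and Pf4 differed by −1.37. Ppbp differed by 0.32, Selp by −0.63 and F5 by 0.73. Here 5 of 9 members were at least 2-fold higher and 1 lower, against 11.5% and 9.05% of all measured genes. This pair crosses slides and sexes, and their part in it was not tested.

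**Figure D2:**
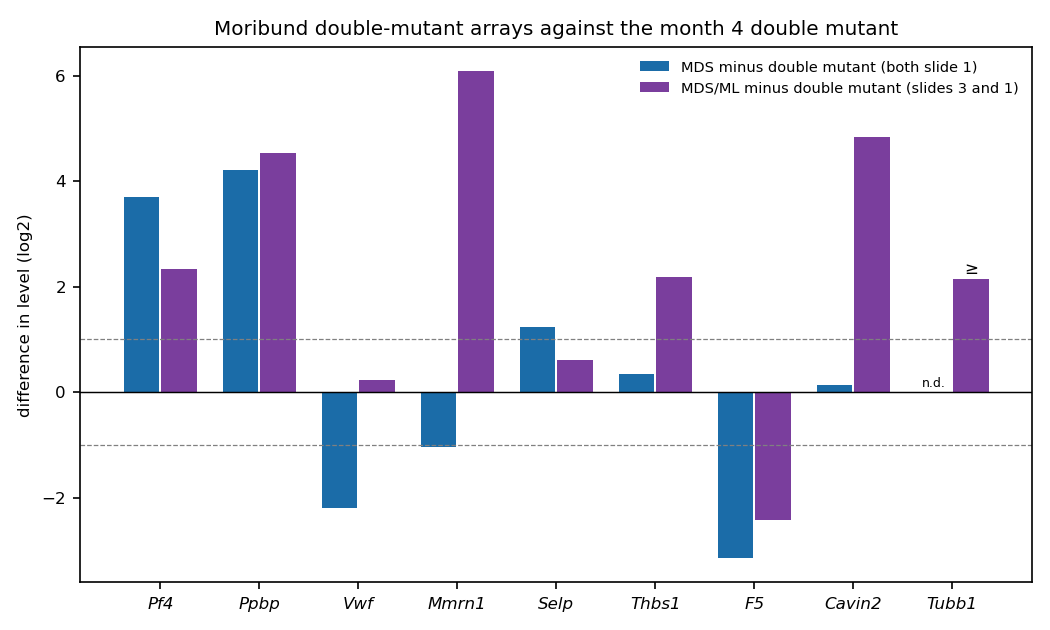
Difference in level (log2) of each gene on the MDS array and on the MDS/ML array, each minus the month 4 RUNX1S291fs/Ezh2Δ/Δ array, from 1 array a group. The dashed lines mark 2-fold, the sign above Tubb1 marks a lower bound, and n.d. marks a pair with neither array well above background. Pf4 and Ppbp are higher and F5 lower on both, while Mmrn1 is −1.03 on MDS and 6.08 on MDS/ML. The F5 level of the double mutant, taken off in both differences, is the highest of all arrays.

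An additive model over the 8 arrays, with terms for RUNX1S291fs (4 arrays), Ezh2 deletion (4 arrays) and moribund stage (2 arrays), gave the tests that the design allows. The moribund stage effect was 4.36 for Ppbp, SE 1.19, adjusted p = 0.142, and 3.29 for Pf4, SE 1.09, adjusted p = 0.229, in limma with Benjamini-Hochberg adjustment over all genes. It was 3.31 for Cavin2, SE 2.09, 2.62 for Mmrn1, SE 2.62, 1.24 for Thbs1, SE 0.69, and 0.78 for Selp, SE 0.41. For F5 it was −1.94, SE 0.78, adjusted p = 0.334, and for Vwf −0.08, SE 1.61. None of the 8 members tested passed the threshold of 0.05, while 250 of 13555 genes did (1.84%), 37 higher and 213 lower.

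The Ppbp call depended on the setting: with normexp background correction its stage effect was 4.05 with adjusted p = 0.00238 in limma, with dim values raised to the floor of their array 4.54 with adjusted p = 0.0203, and without the dim CD45.1+ array from RUNX1S291fs mice 4.68 with adjusted p = 0.0198. Over all alternatives its adjusted p ran from 0.00238 to 0.626, the highest being without the double mutant, and the effect from 3.72 to 6.09. The value of 6.09 is from the stage term alone, which leaves out both lesion terms and so mixes genotype with stage. Mmrn1 rested on MDS/ML alone, its stage effect being −0.94 without that array and −1.32 with slide as a block. The F5 effect was 0.0294 without the double mutant. In ranks, both moribund arrays stood above all 6 others for Pf4, Ppbp and Thbs1, 3 of 8 members, as they did for 10.0% of all genes.

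RUNX1S291fs cells and WT cells were compared for the action of the mutant transcription factor alone. On the RUNX1S291fs array Ppbp was 1.84 higher, Thbs1 1.63 and Selp 1.01, while Mmrn1 differed by −3.75. F5 was at 0.68, Pf4 at −0.30, Vwf at −0.72 and Cavin2 at −0.83 in the same difference. So 3 of 8 members were at least 2-fold higher and 1 lower, among 8.72% and 5.75% of all measured genes. This pair crosses slides.

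Within slide 2, RUNX1S291fs cells could be set against the CD45.1+ cells from RUNX1S291fs mice. Cavin2 was 2.76 higher, Pf4 2.67, Vwf 1.83 and Selp 1.32, Ppbp at least 3.75 and Thbs1 at least 1.84. F5 differed by 0.23, and Mmrn1, dim on the CD45.1+ array, by 0.35 as measured. Here 6 of 8 members were at least 2-fold higher and 0 lower, against 8.73% and 12.3% of all measured genes. The CD45.1+ array of this pair was the dimmest of the series and the lowest for Pf4, Ppbp, Mmrn1, Thbs1 and Cavin2, and the part of its dimness was not tested.

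In the additive model the RUNX1S291fs effect was 3.28 for Ppbp, SE 0.97, adjusted p = 0.462 in limma, 1.58 for Thbs1, SE 0.57, adjusted p = 0.650, and 0.84 for Selp, SE 0.33, adjusted p = 0.771. It was 1.35 for F5, SE 0.64, 1.16 for Pf4, SE 0.89, 1.11 for Cavin2, SE 1.70, and 0.77 for Vwf, SE 1.31. For Mmrn1 it was −2.60, SE 2.14. No member of the 8 passed, and 2 of 13555 genes did (0.0148%), with 807 at an unadjusted p under 0.05. In ranks, all 4 carriers stood above all 4 other arrays for Ppbp and Thbs1, 2 of 8 members, as they did for 3.71% of all genes. For Thbs1 this ended where arrays were scaled to the median of their probes well above background, with RUNX1S291fs 0.06 below Ezh2Δ/Δ.

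**Figure D3:**
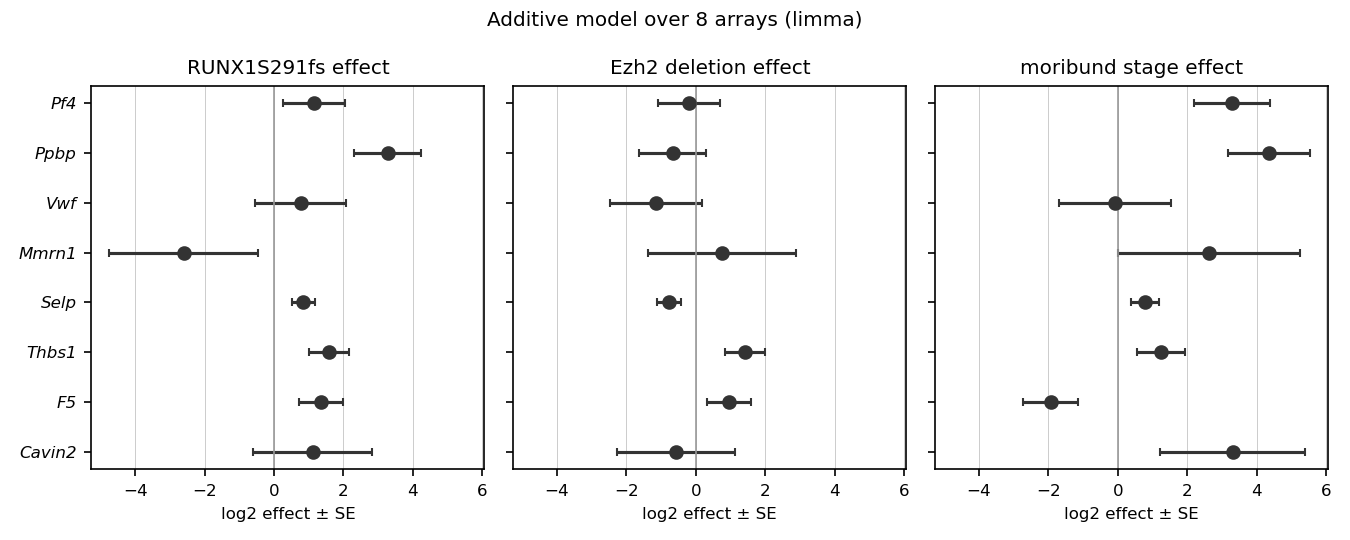
Effects (log2 ± SE) of RUNX1S291fs, Ezh2 deletion and moribund stage on the 8 tested members, from 1 additive limma model over 8 arrays. None of these effects passed an adjusted p of 0.05, and the widest errors are those of Mmrn1 (2.14 to 2.62) and Cavin2 (1.70 to 2.09).

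Ezh2Δ/Δ cells and WT cells were compared for the action of Ezh2 loss alone. On the Ezh2Δ/Δ array Vwf differed by −2.63, Cavin2 by −2.52, Ppbp by −2.11 and Pf4 by −1.65, and Thbs1 was 1.46 higher. Selp, Mmrn1 and F5 differed by −0.61, −0.39 and 0.27. By 2-fold or more, 1 of 8 members was higher and 4 were lower, against 7.80% and 3.82% of all measured genes. Ezh2Δ/Δ and WT cells also differed in slide and sex, whose part was not tested.

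With RUNX1S291fs present, the values ran otherwise. This pair crosses slides in the reverse order: the double mutant was on slide 1 and RUNX1S291fs on slide 2, but Ezh2Δ/Δ on slide 2 and WT on slide 1. The part of slide in this change was not tested. The double mutant minus RUNX1S291fs gave 2.63 for F5, 1.39 for Thbs1, 1.08 for Cavin2, 0.95 for Mmrn1, 0.66 for Vwf and 0.35 for Pf4, with −0.72 for Ppbp and −1.06 for Selp, so 3 of 8 members were at least 2-fold higher and 1 lower (8.08% and 8.43% of all measured genes). In the model the Ezh2 deletion effect was 1.41 for Thbs1, SE 0.57, 0.94 for F5, SE 0.64, −0.78 for Selp, SE 0.33, and −1.15 for Vwf, SE 1.31, each with adjusted p = 1.00 in limma. Of 13555 genes 0 passed (0% called), and 321 had an unadjusted p under 0.05. The test of whether both lesions together departed from the sum of each, the product term, gave 2.81 for F5, SE 0.82, adjusted p = 0.687, and passed for 0 of 13554 genes (0%), with 887 at an unadjusted p under 0.05.

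The double mutant against WT, on the same slide, was 3.31 higher for F5, 3.02 for Thbs1 and 1.12 for Ppbp, and differed by −2.80 for Mmrn1. Pf4, Vwf, Selp and Cavin2 lay within 0.25 of WT. Of 8 members 3 were at least 2-fold higher and 1 lower, among 10.5% and 7.87% of all measured genes. Against the CD45.1+ cells from double-mutant mice, on another slide, the double mutant was higher by 2.43 for Thbs1, 2.39 for F5 and 1.82 for Ppbp, with −3.84 for Mmrn1, −1.76 for Vwf, −0.82 for Cavin2, −0.29 for Selp and 0.39 for Pf4. There 3 of 8 were at least 2-fold higher and 2 lower (9.79% and 9.34% of all measured genes). F5, Thbs1 and Ppbp were thus at least 2-fold higher and Mmrn1 lower on the double mutant against either of these wild-type arrays. Both comparisons use the same double-mutant array, and the share of all genes apart in both was not counted. On the third wild-type array, from RUNX1S291fs mice, Mmrn1 was dim (−3.15) and lay below the double mutant (−1.85). F5 was at −2.33 there, and Thbs1 and Ppbp were dim.

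The 3 wild-type arrays show how far these genes ranged without either lesion. The CD45.1+ array from RUNX1S291fs mice was on the same slide as that from double-mutant mice. It differed from the latter by −4.66 for Cavin2, −4.25 for Vwf and −2.63 for Pf4. It was lower by 5.14 for Mmrn1, with the dim value as measured, and by at least 1.20 for Ppbp. Thbs1, dim on the first of these arrays, was lower by at least 0.80, and Selp and F5 differed by −0.55 and −0.48. Of 8 members 0 were at least 2-fold higher and 5 lower, against 9.39% and 6.76% of all measured genes. Of 12 stem cell markers, 9 were at least 2-fold lower in the same pair and 0 higher, and their part in these values was not tested. For Pf4, Vwf, Mmrn1 and Cavin2 this gap between wild-type arrays was larger than each difference of a month 4 mutant array from WT.

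Against WT, the CD45.1+ array from RUNX1S291fs mice was lower by 4.10 for Mmrn1, its dim value as measured, and by at least 1.90 for Ppbp. It differed by −3.59 for Cavin2, −2.97 for Pf4 and −2.54 for Vwf. That made 0 of 8 members at least 2-fold higher and 5 lower (14.4% and 6.63% of all measured genes). The CD45.1+ array from double-mutant mice was 1.71 above WT for Vwf, 1.07 for Cavin2 and 1.04 for Mmrn1, or 3 of 8 members higher and 0 lower (4.56% and 2.27%). Over the 3 wild-type arrays Selp ranged over 0.55, F5 over 0.92 and Thbs1 over 1.09, against 2.97 for Pf4, 3.70 for Ppbp, 4.25 for Vwf, 4.66 for Cavin2 and 5.14 for Mmrn1, with the dim values of Ppbp, Mmrn1 and Thbs1 as measured.

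The members did not move as 1 set across the 8 arrays. Pf4 and Ppbp moved together (Pearson's r 0.95, n = 8 arrays), and Thbs1 and Selp with Ppbp (0.86 and 0.80). Cavin2 moved with Ppbp (0.79), Thbs1 (0.75) and Pf4 (0.74), and also with Mmrn1 (0.70) and Vwf (0.64). Mmrn1 did not follow Ppbp (0.21) or Selp (−0.16). Selp and its neighbour F5 gave −0.12. The 28 pairs had a median r of 0.35, with 24 above 0, and without the MDS/ML array 20 of 28 were above 0 and Mmrn1 with Cavin2 gave 0.34, n = 7. The arrays share their scaling and, in part, slides, and the moribund arrays weigh heavily in these values, which are descriptions.

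**Figure D4:**
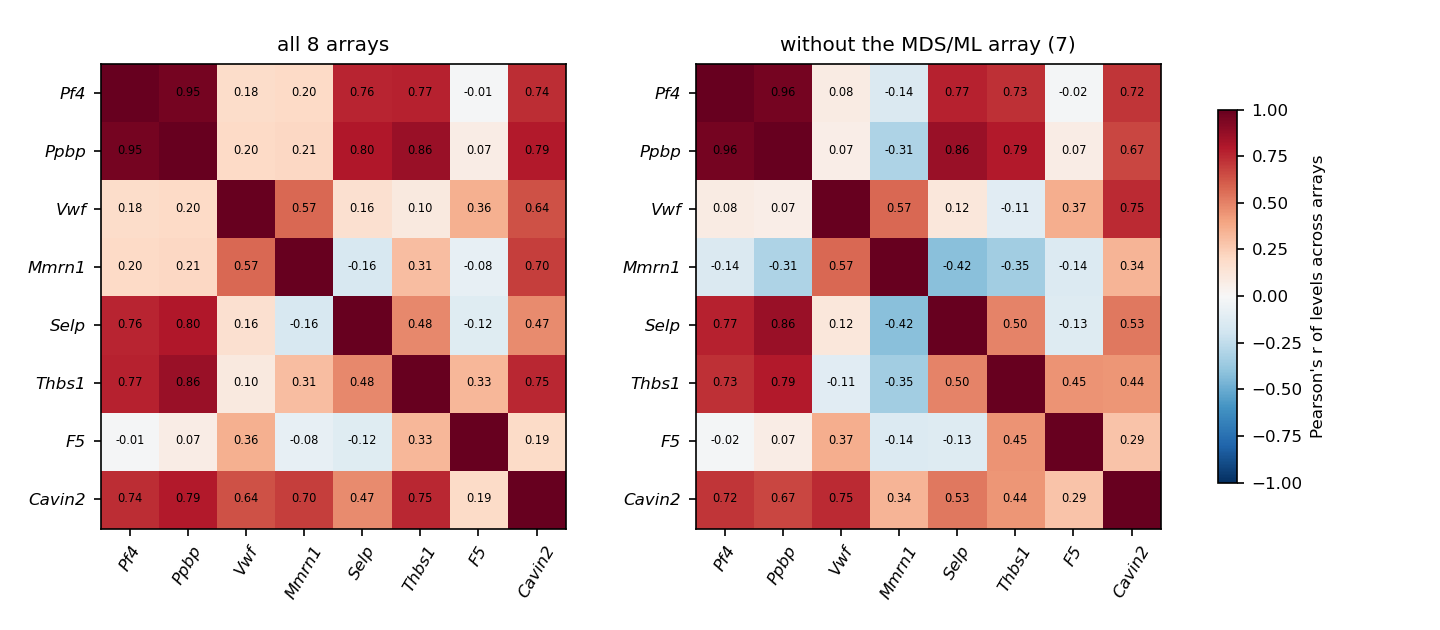
Pearson's r between the levels of each pair of the 8 tested members over all 8 arrays (left) and over the 7 arrays without MDS/ML (right). Pf4 with Ppbp is at 0.95 over all 8 arrays, and without MDS/ML the values of Mmrn1 with Pf4, Ppbp and Thbs1 turn negative, that with Selp being negative in both.

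Among all genes tested, those most like Pf4 over the 8 arrays were Pdzk1ip1 (r 0.98), Zfp948 (0.98) and Gp1ba (0.98), the platelet receptor for von Willebrand factor. Most like Ppbp were Rab27b (0.99), a GTPase of granule secretion, Gp5 (0.99), a platelet surface glycoprotein, and Selenbp1 (0.99). For Vwf they were Tada3 (0.93), Terf2ip (0.90) and Wdr25 (0.90), for Mmrn1 Zfp362 (0.95), Zfp422 (0.94) and Dedd (0.93), and for Selp Rai14 (0.97), Mib2 (0.96) and Slc27a3 (0.96). For Thbs1 they were Zfp697 (0.98), Kmt2e (0.96) and Prpf39 (0.96), for F5 Rac2 (0.98), Aff1 (0.96) and Kif1b (0.95), and for Cavin2 Epg5 (0.97) and Fbxo38 (0.97). The mean of the standardised members was most like Pja2 (0.97), Atf7ip (0.97), Tnrc6b (0.96), Trim56 (0.96) and Fry (0.96). These genes were picked as the highest of all those tested over the same 8 arrays, so the values carry no test.

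Other genes of platelet granules, cytoskeleton and surface were read from lists chosen with earlier results of these data known. For moribund stage, platelet receptors had the highest median effect, 1.80, with 11 of 14 positive, beside 1.93 for the members and −0.13 for all genes. Clec1b, the podoplanin receptor, rose by 5.80, SE 0.69, adjusted p = 0.0154 in limma, and Gp6, the collagen receptor, by 4.13, SE 0.63, adjusted p = 0.0274. The other 12 tested receptors did not pass. Of all genes tested, 250 of 13555 passed for stage (1.84%), 37 higher and 213 lower. In a model without the double-mutant array 0 genes of any kind passed for this stage effect, and with slide as a block 75 did.

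Of the other alpha granule genes 1 rose and 1 fell among 20 tested, with a median of −0.32, while 1.84% of all genes passed. Lat, a signalling adaptor, rose by 2.75, SE 0.48, adjusted p = 0.0420 in limma, and Sparc, a secreted matrix protein also made by stroma, fell by 3.86, SE 0.51, adjusted p = 0.0182. Of 19 other cytoskeleton genes 1 passed, the alpha-tubulin Tuba8, which rose by 3.14, SE 0.47, adjusted p = 0.0260 in limma, and the median was 0.17. Of 12 dense granule genes 0 passed, with a median of 0.41, and the widest effects were those of Slc35d3 (3.41, adjusted p = 0.146) and Rab27b (2.12, adjusted p = 0.290 in limma). Of 13 megakaryocyte transcription factors 0 passed, with a median of 0.73, and Gata2 was at 1.82 and Zfpm1 at 1.79.

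For RUNX1S291fs 0 genes of these 5 lists passed. The median effects were 1.14 for the members, 0.88 for platelet receptors, 0.49 for dense granule genes, 0.47 for megakaryocyte transcription factors, 0.37 for other alpha granule genes and 0.10 for other cytoskeleton genes, against 0.03 for all genes. The widest single effects were those of Clec1b (3.65, adjusted p = 0.104) and Itga2b (2.87), Treml1 (3.53, adjusted p = 0.244 in limma) and Ecm1 (2.55), Rab27b (1.99) and Slc35d3 (1.91), Pdlim1 (−1.84) and Plek (1.22), and Gata2 (1.03) and Runx1 (0.72). For Ezh2 deletion 0 passed as well, and the medians ran from −0.38 for the members to −0.04 for other cytoskeleton genes, beside −0.04 for all genes. Among the widest were those of Myl9 (2.27) and Pdlim1 (0.50), Gas6 (1.28), Itga2b (−1.05) and Clec1b (−1.03), Slc18a2 (−0.997) and Lyst (0.45), and Meis1 (−0.73) and Tal1 (−0.62), each with adjusted p = 1.00 in limma.

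Marker genes of several cell types also differed between the arrays. Without the members, the summed linear level of 9 other megakaryocyte and platelet markers was 45.9 on the double mutant, 404.7 on MDS, 354.0 on MDS/ML, 58.2 on RUNX1S291fs, 9.59 on Ezh2Δ/Δ, 5.49 and 19.2 on the CD45.1+ arrays from RUNX1S291fs and double-mutant mice and 21.4 on WT, in units of the 75th percentile of each array. All 9 were well above background on 6 arrays, and 8 on Ezh2Δ/Δ and on the CD45.1+ array from RUNX1S291fs mice, where Clec1b was not. The brightest genes weigh most in such a sum. Treml1, the brightest of the 9 on the double mutant, MDS and MDS/ML, was at 4.42, 7.97 and 7.49 there, against 1.87 on WT. In these bulk samples more cells of a type and more RNA per cell cannot be told apart. The part of such cells in the results above was not tested.

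By mean log2 level, stem cell markers went the other way on the moribund arrays. The mean level of 12 of them was −2.45 on MDS and −1.69 on MDS/ML, against 0.08 on the double mutant and 0.34 on WT, with 8 and 9 of 12 well above background on MDS and MDS/ML, against 12 and 11. It was also low on the CD45.1+ array from RUNX1S291fs mice, at −1.28 with 9 of 12 well above background, against 0.87 on the other CD45.1+ array. The summed linear level of these markers, which the brightest genes dominate, ran otherwise. It was 51.7 on the double mutant, 63.0 on MDS, 98.7 on MDS/ML and 159.0 on WT. On the CD45.1+ arrays from RUNX1S291fs and double-mutant mice it was 340.0 and 236.5. Procr fell by 5.85, SE 0.95, adjusted p = 0.0327 in limma, and Hoxb5 by 5.54, SE 0.88, adjusted p = 0.0311, for moribund stage. Hoxb5 was not well above background on MDS (−7.01) or MDS/ML (−6.61), so the size of its fall rests on dim values. Ly6a, of the sorting gate, fell by 2.26, adjusted p = 0.0367 in limma.

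Vwf, Selp, Thbs1 and Cavin2 are also endothelial genes. Of 12 endothelial markers 8 to 10 were well above background on each array, and Cdh5 and Cldn5 on none of the 8. The 12 had summed levels of 30.9 on the double mutant, 40.4 on MDS, 64.6 on MDS/ML, 45.4 on RUNX1S291fs, 34.9 on Ezh2Δ/Δ and 26.4 to 36.5 on the wild-type arrays. Their mean log2 level ran otherwise and was highest on RUNX1S291fs (0.19). It was −1.14 on the double mutant, −1.37 on MDS, −0.245 on MDS/ML, −0.62 on Ezh2Δ/Δ and −1.71 to −0.44 on the wild-type arrays. Thbs1 is made by monocytes and macrophages too, and the double mutant, where F5 stood highest, had the highest summed level of 8 monocyte and macrophage markers, 88.1, against 12.2 on MDS, 7.29 on MDS/ML, 45.9 on RUNX1S291fs, 17.9 on Ezh2Δ/Δ, 76.3 and 31.8 on the CD45.1+ arrays from RUNX1S291fs and double-mutant mice and 25.2 on WT. F5 was at −2.33 on the CD45.1+ array where that sum was 76.3. The summed level of 10 mast cell and basophil markers was 211.8 on the double mutant, 398.0 on MDS, 116.5 on MDS/ML, 141.2 on RUNX1S291fs, 10.5 on Ezh2Δ/Δ, 33.1 and 16.2 on the CD45.1+ arrays from RUNX1S291fs and double-mutant mice and 8.02 on WT, while their mean log2 level was highest on the double mutant (2.83, with 0.67 on MDS). The part of these cells in the F5 and Thbs1 levels was not tested.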

How the data were processed

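RNA of 8 LSK cell samples was measured on 1 Agilent one-colour array each. Per the labels' protocols, 20 ng of total RNA was amplified and labelled with cyanine 3. Per the file headers, arrays were read with Feature Extraction 10.7.1.1, and the processed signal is an intensity with background and spatial trend removed and no scaling between arrays. The authors' deposited series table holds linear signal. It differed from the processed signal by a single factor per array for 99.7% to 99.8% of probes, within 0.01 log2, with column medians of 0.0526 to 0.0671 and no centring of genes, and served as an alternative.

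From the 62976 spots per array, control and outlier-flagged spots were left out, repeat spots averaged to 55681 probes, and 45 probe values were missing. Gene names came from RefSeq (GRCm38.p6, names only) through transcript accessions, which named 27235 probes. The probe with the highest mean stood for a gene. Genes with 3 or more arrays well above background entered limma 3.58.1 (R 4.3.3), with 4 residual degrees of freedom among arrays, an adjusted p threshold of 0.05 and moderated variances. On data simulated around the gene means of these arrays the RUNX1S291fs term recovered 167 of 200 genes changed by 2 log2 units and 200 of 200 changed by 4, among 13555 genes. The simulated noise had the same SD for every gene and array and no slide effect. The SE of this term among the members ran from 0.33 (Selp) to 2.14 (Mmrn1). The simulation checks the model code and does not give the power for these genes. For pairs of arrays, a value marked dim was raised to the weakest signal of that array still called above background, where it lay under it. The difference is then written as at least. Mmrn1 on the CD45.1+ array from RUNX1S291fs mice, dim at −3.15, lay above that signal. Its differences there are as measured and are no bounds. The others are bounds under the background removal of the processed signal. With normexp, that of Ppbp between the CD45.1+ arrays turned to 0.0303. The number of arrays limits the precision.

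The members and all gene lists were chosen with earlier results of these data known. All 9 members are named, and of each list the genes past the threshold, otherwise the 2 with the widest effect, and for likeness the 3 genes highest in Pearson's r. A few genes that this rule names are not reported here. The genes Bin2, Ly6c2, Cd68 and Ly6g of these lists had no named probe. Normexp correction used the median spot signal, with an offset of 50. Alternatives changed the background correction, scaling, filter, probe rule, slide block, arrays and model terms. As each group is 1 sample, p-values measure the spread between arrays that share the same lesions and stage, and departures from additive effects.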

Additional observations from a re-analysis of the deposited data

Results flagged for a closer look

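Mmrn1 on MDS/ML, at 4.23, stood apart from the other 3 RUNX1S291fs carriers (−2.88 to −1.85), with a gap of 0.855 of the range of the 4 arrays, above Dixon's 95% critical value of 0.829. In this search 18 groups of 4 arrays were examined, and chance gives such a value in about 1 in 20 groups. The array is the only one of its slide and of this disease stage, and its cells came from 1 mouse, which cannot be told apart.

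The Cavin2 differences for Ezh2 deletion ran in opposite directions: Ezh2Δ/Δ differed from WT by −2.52, and the double mutant from RUNX1S291fs by 1.08. With 1 array a group these 2 differences were not tested against each other directly. Ezh2Δ/Δ and RUNX1S291fs were read on slide 2, and WT and the double mutant on slide 1. A slide difference would thus enter the 2 differences with opposite signs. The part of slide, and of the sex of the Ezh2Δ/Δ cells, was not tested. The product term of the model over all 8 arrays was 2.76 for Cavin2, SE 3.55, adjusted p = 0.898 in limma. The wild-type arrays alone ranged over 4.66 for this gene.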

How the results depend on the processing

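A block that joins each CD45.1+ array to the CD45.2+ array of the same kind of recipient, added after the data were seen, could not be fitted beside the lesion terms, since it leaves 0 residual degrees of freedom. Within both the RUNX1S291fs and the double-mutant pair, Ppbp (by at least 3.75, and by 1.82) and Thbs1 (by at least 1.84, and by 2.43) were at least 2-fold higher in the mutant cells. Pf4 (2.67 and 0.39) and F5 (0.23 and 2.39) were higher in both too. At least 2-fold higher were 8.73% and 9.79% of all measured genes, and the share higher in both pairs was not counted. Ppbp and Thbs1 were dim on the CD45.1+ array of the RUNX1S291fs pair, and the double-mutant pair crosses slides. The count of genes past the threshold for RUNX1S291fs, 2 in the report, was 1 with normexp, 5 with quantile normalization, 23 with scaling to the median of probes well above background, 0 without a filter on dim probes, 0 where all 8 arrays had to be well above background, 1 with the mean of all probes of a gene, 0 with slide as a fixed or random block, 4 on month 4 arrays, 9 without the stage term, 0 with a variance trend and 74 with the term alone. It ran from 0 to 10 as single arrays were left out. For moribund stage, 250 in the report, it was 150 without the filter, 152 with genes on all 8 arrays, 75 with slide as a fixed block, 1281 with the term alone and 0 (without the double mutant) to 391 (without MDS/ML) as arrays were left out. It was 95 without WT, 91 without the CD45.1+ array from double-mutant mice and 155 without MDS. For Ezh2 deletion and the product term 0 genes passed in each alternative that ran, leaving out an array included.

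Among the members, the Ppbp stage effect passed with normexp (4.05), with the floor (4.54), without the CD45.1+ array from RUNX1S291fs mice (4.68) and alone (6.09, adjusted p = 0.0221 in limma), and Pf4 alone (3.93, adjusted p = 0.0199, against 0.0717 to 0.616 in its other alternatives). A term alone leaves out the other terms, so the stage values given as alone mix both lesions with stage. The Vwf stage effect turned to 0.0188 with quantile normalization and 0.0874 with slide as a random block, and ran from −1.30 to 2.03 as arrays were left out. That of Mmrn1 turned to −1.32 with slide as a fixed block and ran from −0.94 to 6.18, and that of F5 from −2.78 to 0.0294. The Ezh2 effect on Selp turned to 0.0361 alone, that on F5 ran from −0.18 to 2.63, that on Vwf from −2.35 to 0.66, and the RUNX1S291fs effect on Vwf from −0.44 to 2.58. Ppbp on the CD45.1+ array from RUNX1S291fs mice minus that from double-mutant mice turned to 0.0303 with normexp. Except where the setting itself removes arrays or genes, the cause was not tested. Scaling to the median of probes well above background shifted the dim CD45.1+ array by −0.66 and WT by 0.46. The stage term could not be fitted on month 4 arrays or without itself, nor the product term without Ezh2Δ/Δ, RUNX1S291fs or the double mutant or alone.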
